A study of Mus musculus with 3 samples.

Results

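Among cells sorted from the retinas of mice that express an active form of YAP in glia, 2730 of 24695 carried both the transcript of Igfbp2, an insulin-like growth factor binding protein, and the transcripts of a cell in G2, the gap between DNA replication and mitosis. They were selected on measured values, with every gene taken as unique molecular identifiers (UMIs) per 10,000 UMIs of the cell. The sum g was that of Top2a, Cdk1, Prc1, Nusap1, Ube2c, Aurkb and Mki67, which rise before mitosis, and the sum m was that of Cdc20, Ccnb1, Cenpa, Cdkn3, Hmmr, Knstrn and Ccnb2, which peak at mitosis. A cell entered with Igfbp2 of at least 5, g of at least 10 and g at least as high as m. The cells numbered 740, 1072 and 918 in runs 1, 2 and 3, which was 9.65%, 12.2% and 11.2% of the cells of each run and 41.7% ± 5.79 of the Igfbp2-high cells (SD, n = 3 runs; 35.0%, 45.5% and 44.5%). They are called G2 cells here for their transcripts, since DNA content was not measured.

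Every cell came from adult mice with the genotype Yap5SA+/tg, ROSA26R-tdTomato+/tg and Glast-CreERT+/tg (written Glast-CreERT2 in the design text), given tamoxifen and then NMDA, which kills retinal neurons, with cells taken after 2 days. Glast-driven Cre is active in Müller glia and also in other cells that express Glast, such as astrocytes, and Cre recombination turns on Yap5SA together with the red marker tdTomato. The tdTomato-positive cells were sorted and polyA RNA was counted with 10X Chromium 3′ v2 libraries, in 3 runs of 7670, 8802 and 8223 cells. The 3 runs form 1 group with no control retina, and the labels do not say that they came from separate animals. The p-values therefore measure only how far class differences vary between runs, which may be technical.

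Müller glia span the retina, recycle glutamate and retinoids and feed neurons, and in adult mice they rarely divide. YAP is the transcriptional effector of the Hippo pathway: the Hippo kinases phosphorylate it and hold it out of the nucleus, and the Yap5SA form cannot be phosphorylated at those sites and stays active. In a dividing cell the genes of DNA replication are switched on by E2F factors in late G1 and S phase, and the genes of spindle, kinetochore and cytokinesis follow in G2 and mitosis under B-Myb and FOXM1, which work through the MuvB complex.

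The G2 cells were set against 3 other classes of Igfbp2-high cells of the same runs. Cells without cycle transcripts (g and m both under 1) numbered 1273, or 490, 399 and 384 per run. S phase cells had a sum of at least 10 over Mcm2, Mcm3, Mcm5, Mcm6, Cdc6, Gins2 and Ccne2, with g and m under 10, and numbered 360, or 128, 167 and 65 per run. Cells without cycle transcripts had no limit on this sum. It was under 1 in 325, 288 and 253 of them per run and reached 10 in 1.26%. Mitotic cells had m of at least 10 and above g and numbered 989, or 317, 342 and 330 per run. The other Igfbp2-high cells lay between these limits and were compared with none of them. The median cell held 15694 UMIs without cycle transcripts, 20081 in S phase, 24729.5 in G2 and 15513 in mitosis. The median G2 cell held 1.56, 1.5 and 1.59 times the UMIs of the median cell without cycle transcripts in runs 1, 2 and 3, a mean of 1.55 ± 0.0457 (SD, n = 3). The direction was the same in 3 of 3 runs, and 0.25 is both the exact two-sided sign-flip p and the smallest that 3 runs allow. Depth can itself set the classes, since their limits rest on UMIs counted per cell, so this ratio is a description. Against mitotic cells the ratio was 2.06, 1.49 and 1.36, and against S phase cells 1.47, 1.1 and 1.22.

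All 5 markers given for the class were high in it, which the rule itself required. Values here and below are CPM, the summed UMIs of a gene scaled to 1000000 UMIs of a class in a run, given for runs 1, 2 and 3. Cdk1, the kinase that drives entry into mitosis, stood at 7.17, 5.49 and 5.78 in cells without cycle transcripts, 229, 228 and 236 in S phase, 656, 609 and 659 in G2 and 127, 123 and 143 in mitosis. Top2a, the topoisomerase that untangles replicated DNA, stood at 3.34, 4.48 and 3.85, then 95.5, 155 and 121, then 331, 425 and 349 and then 107, 177 and 116 in the same order of classes. Both were highest in G2 cells in every run, with no overlap between G2 and any other class. Ube2c, the ubiquitin-conjugating enzyme of the anaphase-promoting complex (APC/C), had 558, 611 and 716 in G2 cells and 215, 265 and 307 in mitotic cells. Aurkb, the kinase of the chromosomal passenger complex, had 198, 163 and 188 in G2 cells and 48.5, 51.4 and 58.5 in mitotic cells. Mki67, the proliferation antigen Ki-67, had 139.6, 196 and 174 in G2 cells and 140.5, 188 and 156 in mitotic cells, so that these classes overlapped. The m genes were already present in G2: Cdc20, the APC/C activator, had 290.4, 285 and 317 in G2 cells, against 689, 697 and 685 in mitotic cells. Ccnb1, the cyclin partner of Cdk1, had 257, 242 and 258 in G2 cells and 430.4, 487 and 489.6 in mitotic cells. Igfbp2, required of every class, stood at 3463, 2859 and 3089 without cycle transcripts, 4656, 3213 and 3308 in S phase, 3341, 2739 and 2929 in G2 and 3054, 2465 and 2705 in mitosis.

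**Figure D1:**
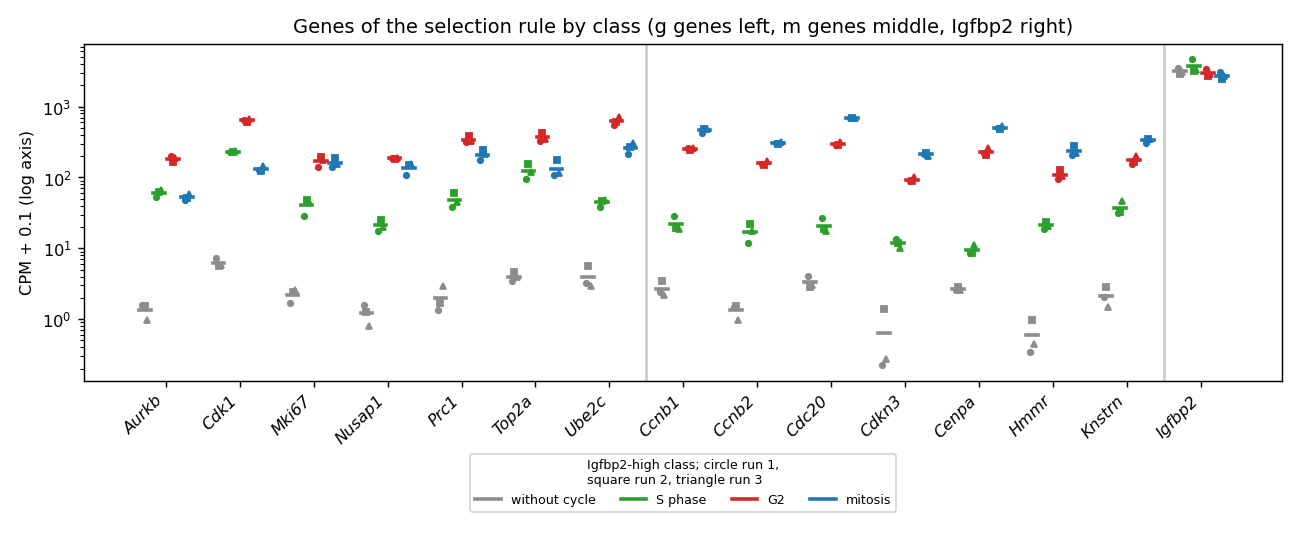
CPM (log axis) of the genes used by the rule in the Igfbp2-high classes without cycle transcripts, in S phase, in G2 and in mitosis. Each point is 1 of 3 runs. The g genes stood lowest without cycle transcripts, Cdk1, Top2a, Ube2c and Aurkb were highest in G2 in every run, and the m genes Cdc20, Ccnb1 and Cenpa were highest in mitosis.

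Nearly all cells with this G2 pattern carried Igfbp2. Of the 2918 cells with g of at least 10 and at least m, 93.6% had Igfbp2 of at least 5 (exact binomial 95% interval 92.6 to 94.4, for counting error only), 133 lay between 1 and 5, and 55 lay under 1, of which 31 had no Igfbp2 UMI. The share with at least 5 was 96.0%, 93.4% and 91.9% in runs 1, 2 and 3. Runs 1 and 3 lay outside the interval, which does not measure the spread between runs. Of all 24695 cells, 26.4% had Igfbp2 of at least 5. With microglia left out, only 9, 15 and 25 cells in runs 1, 2 and 3 were in G2 with Igfbp2 under 1, in 2 runs fewer than the minimum of 20, so G2 cells with and without Igfbp2 were not compared. At the limits, the 103 members with g of 10 to 11 had a median m of 3.08 and 21420 UMIs, and the 116 Igfbp2-high cells just outside, with g of 9 to 10, had a median m of 2.79 and 20389.5 UMIs. Near g equal to m, 56 members lay just inside and 40 cells just outside, and near the Igfbp2 limit 38 members had 5 to 6 and 37 cells had 4 to 5. The authors' normalized table held 84.9% of the G2 cells, 79.6% of the cells without cycle transcripts, 93.1% of S phase cells and 36.6% of mitotic cells.

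Genes of G2 and mitosis often carry in their promoters the cell cycle genes homology region (CHR), letters read by the MuvB complex, and CCAAT boxes, read by NF-Y. The promoters of 3 g genes and 1 m gene are shown because the G2 cells are defined by these transcripts, 5′ to 3′ from RefSeq on GRCm38.p6, as 250 bases before and 50 after the annotated start. Top2a lies at chr11:99024140-99024439, minus strand, Cdk1 at chr10:69352863-69353162, minus strand, Ube2c at chr2:164769679-164769978, plus strand and Cdc20 at chr4:118437294-118437593, minus strand. Capitals mark matches on either strand: the common CHR form TTTGAA, which reads TTCAAA on the opposite strand, its variant form TTCGAA, and the box CCAAT, which reads ATTGG on the opposite strand.
Top2a: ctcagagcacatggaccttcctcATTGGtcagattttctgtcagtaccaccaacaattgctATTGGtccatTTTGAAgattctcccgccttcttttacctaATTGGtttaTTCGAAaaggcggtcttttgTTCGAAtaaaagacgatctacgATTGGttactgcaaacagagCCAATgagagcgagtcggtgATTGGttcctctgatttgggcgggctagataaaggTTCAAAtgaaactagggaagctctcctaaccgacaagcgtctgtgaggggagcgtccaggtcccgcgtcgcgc
Cdk1: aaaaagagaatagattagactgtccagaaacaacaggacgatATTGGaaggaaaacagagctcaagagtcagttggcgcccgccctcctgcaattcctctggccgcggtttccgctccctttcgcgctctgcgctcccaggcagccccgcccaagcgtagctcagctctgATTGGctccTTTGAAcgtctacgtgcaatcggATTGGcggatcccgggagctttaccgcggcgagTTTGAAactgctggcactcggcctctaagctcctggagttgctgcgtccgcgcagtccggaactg
Ube2c: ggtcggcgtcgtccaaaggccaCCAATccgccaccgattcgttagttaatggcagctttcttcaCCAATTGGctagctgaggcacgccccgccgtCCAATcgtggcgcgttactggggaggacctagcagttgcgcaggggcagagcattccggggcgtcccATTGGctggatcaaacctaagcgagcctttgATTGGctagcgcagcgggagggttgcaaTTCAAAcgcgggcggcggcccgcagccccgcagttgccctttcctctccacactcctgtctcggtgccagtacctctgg
Cdc20: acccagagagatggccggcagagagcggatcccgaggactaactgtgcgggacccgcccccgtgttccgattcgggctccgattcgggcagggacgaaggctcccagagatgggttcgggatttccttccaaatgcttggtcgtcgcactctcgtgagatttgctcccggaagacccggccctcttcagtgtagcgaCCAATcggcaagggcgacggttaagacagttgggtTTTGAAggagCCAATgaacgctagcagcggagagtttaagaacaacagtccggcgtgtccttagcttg

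Top2a held 4 CHR matches and 6 CCAAT matches, Cdk1 2 and 3, Ube2c 1 and 6, and Cdc20 1 and 2. In Cdk1 the CHR matches began 71 and 15 bases before the start, in Ube2c 29 and in Cdc20 18. TTCGAA reads the same on both strands and was counted once, and a pair of the CCAAT matches of Ube2c overlapped. Of the 14 g and m genes, 13 had a promoter in the table (Aurkb was the exception), and 10 of these held a CHR match and 11 a CCAAT match. Over all 27025 promoters of the same length, 19.4% held a CHR match and 37.9% a CCAAT match, and among the 8367 promoters of genes at 5 CPM or more in these cells the shares were 13.3% and 39.5%. A CHR match was found in 19 of 22 promoters of listed spindle motor and microtubule genes (86.4%), in 6 of 40 of S phase and replication genes (15%) and in 1 of 19 of Müller identity genes (5.26%). These are matches of letters and not shown sites, and no match says only that these letters are not in the window.

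**Figure D2:**
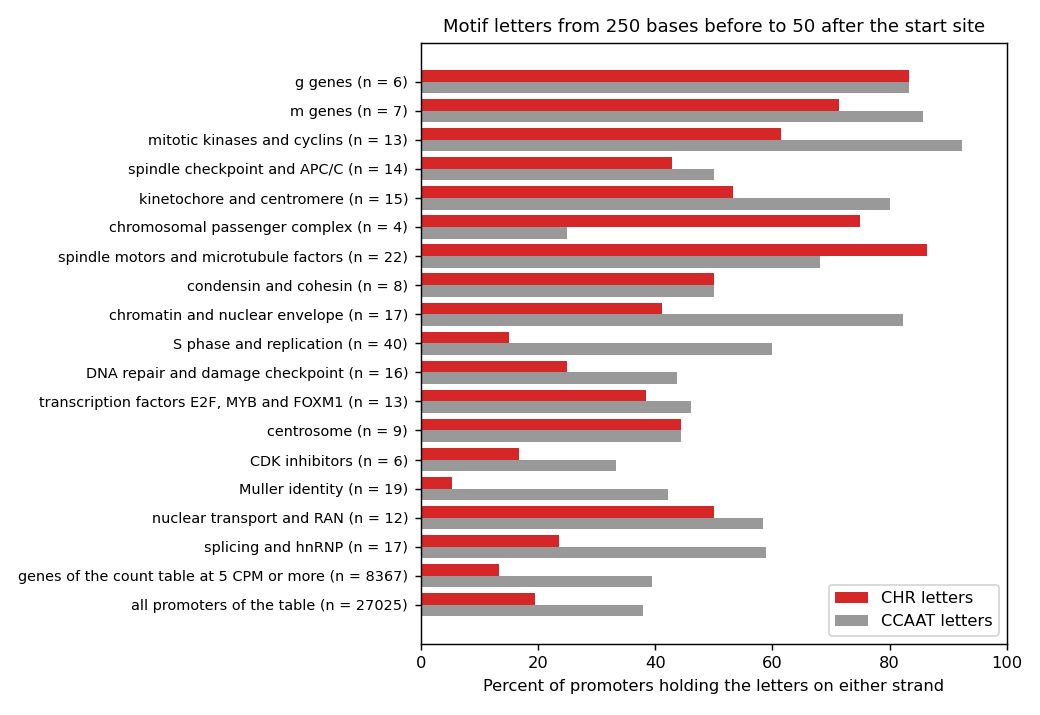
Percent of promoters with at least 1 CHR match and with at least 1 CCAAT match, for the g and m genes, gene lists and all promoters. CHR shares were 83.3% for g genes, 71.4% for m genes and 86.4% for spindle motor genes, against 19.4% of all promoters.

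To set depth aside, each cell was thinned at random to 3500 UMIs, which left out no cell. A UMI of Ccna2, the cyclin of S phase and G2, was then found in 1.3% of cells without cycle transcripts, 24.1% of S phase cells, 60.9% of G2 cells and 61.4% of mitotic cells. In the 12051 cells with Igfbp2, g and m all under 1, microglia left out, which should lack it, the share was 0.9%. Plk1, a kinase of mitotic entry, was found in 0.4%, 1.6%, 32.7% and 39.2% of cells in the same order of classes. Mcm5, a subunit of the replicative helicase, was not used to select G2 cells, but belongs to the sum that selects S phase cells. It was found in 7.6% of cells without cycle transcripts, 53.5% of S phase cells, 31.1% of G2 cells and 28.1% of mitotic cells. Its high share in S phase cells was favoured by that selection. The sum of the 7 replication genes had a median of 0.46 per 10,000 UMIs without cycle transcripts, 12.3 in S phase, 5.86 in G2 and 5.22 in mitosis, and 12.3% of the G2 cells reached the S phase limit of 10.

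The class carried Müller glia transcripts. Over the 17 listed Müller markers the summed level was 13010 to 15360 CPM in the runs of G2 cells, against 20450 to 24580 in cells without cycle transcripts, and no marker was at 0. Vim and Prdx6, an antioxidant enzyme, led the list in G2 cells. The 6 astrocyte markers summed to 30.9 to 64.0 in G2 cells and the 10 microglia markers to 3.77 to 8.78, with no marker of either list at 0. Rod transcripts were present in every class, with 10 markers summing to 540.2 to 714 in G2 cells and 596 to 834 in cells without cycle transcripts. In runs 1, 2 and 3 they summed to 294, 376.5 and 888 in S phase cells and 1373, 606 and 614 in mitotic cells.

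The G2 cells were not uniform, and the ratio of m to g ordered them. The ratio was under 0.25 in 381 members, 0.25 to 0.5 in 1182, 0.5 to 0.75 in 882 and 0.75 to 1 in 285, with medians of 21083, 24927.5, 26012.5 and 25773 UMIs per cell. Values in these 4 ranges are means of 3 runs, and since the ranges were cut on cycle genes they are given without a test. Cyclin E1, Ccne1, which drives the start of replication, stood at 94.2 ± 5.57, 64.0 ± 2.36, 28.5 ± 4.80 and 11.1 ± 2.33 CPM (SD, n = 3 runs) from the lowest to the highest range. The CDK inhibitor p21, Cdkn1a, stood at 110 ± 9.38, 93.6 ± 16.5, 51.7 ± 6.22 and 22.6 ± 13.8. Both were highest where mitotic transcripts were lowest. Plk1 ran the other way, at 35.8, 99.2, 187 and 251, as did the kinase Aurka at 44.6, 101, 187 and 230 and the kinetochore protein Cenpf at 142, 276, 467 and 628. Kpna2, an importin that carries cargo into the nucleus, stood at 34.1, 77.0, 156 and 180, and the CDK inhibitor p18, Cdkn2c, at 124, 188, 241 and 245, both lower in the last range than in the one before it in run 2. The ribonucleotide reductase subunit Rrm2 stood at 665, 699, 610 and 519. Of the glial transcripts, Vim, an intermediate filament, stood at 4502, 4500, 4584 and 4329, and the retinoid carrier Rlbp1 at 285, 327, 311 and 347, higher in the last range than in the first in 3 of 3 runs. The median replication sum was 7.3, 6.3, 5.3 and 5.0 per 10,000 UMIs.

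**Figure D3:**
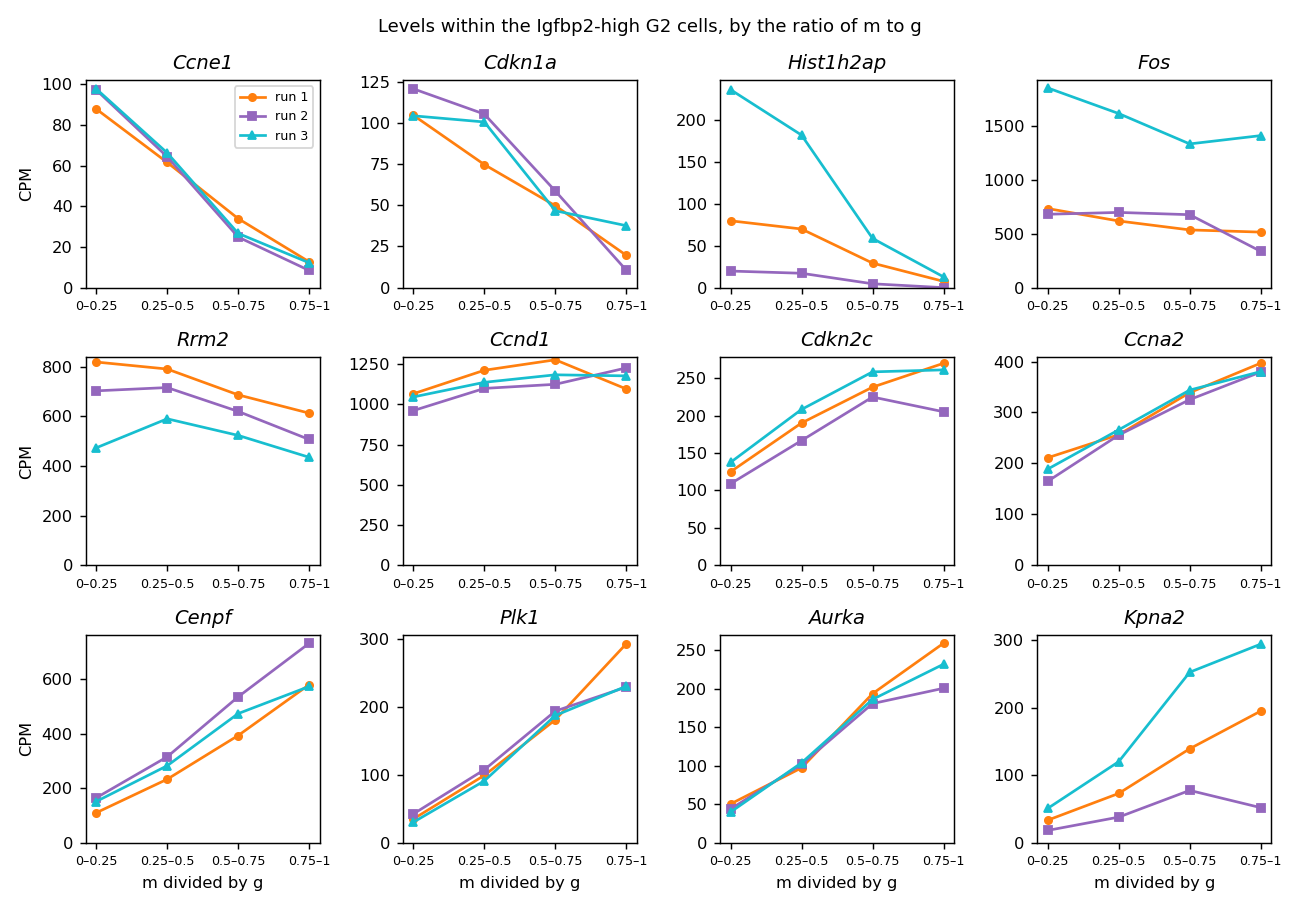
CPM of 12 genes in the Igfbp2-high G2 cells, split by the ratio of mitotic (m) to G2 (g) transcripts into ranges of 0 to 0.25, 0.25 to 0.5, 0.5 to 0.75 and 0.75 to 1. Each line is 1 of 3 runs. Ccne1 and Cdkn1a were lower, and Plk1, Aurka, Cenpf and Kpna2 higher, in the highest than in the lowest range in every run.

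A histone transcript, as counted from polyA RNA, differed between runs. Hist1h2ap, a replication-dependent H2A gene, stood at 79.9, 19.8 and 237 CPM in runs 1, 2 and 3 in the lowest ratio range and at 7.5, 0 and 12.9 in the highest. It was lower in the highest range in every run, and its level in run 3 was above that of run 2 in every range. Split by Igfbp2 into 609 members at 5 to 15, 1035 at 15 to 30 and 1086 at 30 or more, cyclin D1, Ccnd1, stood at 966, 1105 and 1299 CPM, and Rrm2 at 465, 596 and 780. In the same order of Igfbp2, Cdkn1a stood at 105, 75 and 57.5, and Glul, the glutamine synthetase of Müller glia, at 492, 419 and 357. Hmgb2, a chromatin protein abundant in dividing cells, stood at 1077, 1098 and 1081.

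The main comparison set the G2 cells against Igfbp2-high cells without cycle transcripts in the same run, with 1 summed profile for every class in a run. Of 12607 genes tested, 3664 were higher in G2 (29.1%) and 3797 lower (30.1%) at an adjusted p under 0.05 (edgeR quasi-likelihood, run as a block), and 947 and 1064 of them differed by at least 1 on the log2 scale. The median change over all tested genes was -0.02 in share of UMIs but 0.60 in UMIs per cell, as G2 cells held more UMIs. A lower share therefore did not always mean fewer molecules: of the 3797 lower genes, 1365 (35.9%) also had fewer UMIs per cell in all 3 runs.

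Some of the cells without cycle transcripts carried astrocyte transcripts. Of the 1273, 182 (14.3%; 58, 62 and 62 per run) held at least 2 UMIs per 10,000 of the astrocyte genes Pax2, S100b, Pdgfra, Cxcl14 and Igf1 together, against 8 of the 2730 G2 cells. S100b averaged 2.2 CPM in G2 cells, 1305 in those 182 cells and 1.5 in the other cells without cycle transcripts, and Gfap 38.9, 6232 and 103. The sum of the 6 astrocyte markers was 46.1 in G2 cells and 1118 in cells without cycle transcripts. The comparison was therefore repeated without such cells, a choice made after seeing the data. It tested 12462 genes and gave 3562 higher (28.6%) and 3305 lower (26.5%), of which 3344 and 3049 were called in the same direction with all cells. Changes below are log2 of G2 over the other class ± SE and are given with all cells, and again without the astrocyte-marked cells where that moved them by more than 0.58 or ended the call. Every gene named below with an adjusted p under 0.05 moved the same way in 3 of 3 runs. Of the 10 largest falls by the naming rule with all cells, Rgs5, Igfbp5, S100b, Ntrk2 and Lect1 stood under 5 CPM in both classes once these cells were left out. Serpina3n, a protease inhibitor, had -5.03 ± 0.26 with all cells and -1.16 ± 0.21 without them, and Chil1, a chitinase-like protein, -4.69 ± 0.25 and -1.76 ± 0.23. Gfap, the filament of astrocytes and stressed Müller glia, had a log2 change of -4.58 ± 0.20 with all cells and -1.60 ± 0.11 without them, and Lcn2, a secreted acute-phase protein, -6.96 ± 0.47 and -1.52 ± 0.44 (adjusted p = 0.0066). Without those cells Lcn2 had 8.6, 19.2 and 3.07 CPM in G2 cells and 16.2, 73.2 and 3.9 in cells without cycle transcripts, so that it was lower in 3 of 3 runs, by most in run 2, and the classes overlapped. Slc5a3, an inositol carrier, had -3.50 ± 0.12 with all cells and -0.11 ± 0.20 without them (adjusted p = 0.68).

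Cycle genes outside the rule are described without p-values, since the rule chose cells on cycle transcripts. Genes outside the cycle lists can go with the cycle too, as Cdkn2c and Kpna2, whose mean levels rose with the ratio of m to g. They, Cdkn2d and the RAN genes are given without p-values as well. For any other such gene below, the p-value is no separate support. Of the 222 listed cycle genes tested, 216 were called higher in G2 and 3 lower, with a median log2 change of 2.98. Over all genes tested the shares were 29.1% and 30.1%. All 18 mitotic kinase and cyclin genes, all 26 spindle motor and microtubule genes and all 22 kinetochore genes were called higher, and 51 of 52 S phase and replication genes. Cenpf had 313, 397 and 379 CPM in G2 cells, against 3.09, 4.19 and 2.45 in cells without cycle transcripts, a log2 change of 6.75 ± 0.11. Plk1 had 142, 135 and 139 against 1.86, 1.16 and 0.7 (6.70 ± 0.13). Both were near 0 in every run of the cells without cycle transcripts. Rrm2, which makes the deoxynucleotides of replication, had 738, 668 and 533 against 16.3, 12.6 and 13.7 (5.48 ± 0.11), and the chromatin protein Hmgb2 1088, 1028 and 1151 against 80, 62.4 and 94 (3.77 ± 0.10). Foxm1, a transcription factor of G2 genes, changed by 5.11 ± 0.16 and Mybl2, which encodes B-Myb, by 3.79 ± 0.23.

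By the naming rule, the 10 largest rises outside the cycle lists were of Fam83d, Depdc1a, Sapcd2, Mxd3, Neil3, Hist1h2ap, Fam64a, Cenpp, Shcbp1 and Ube2t. Those of them known from dividing cells are described without p-values too, and each passed the level limit only through the G2 cells. Fam83d, a spindle protein, had 63.6, 54.8 and 64.5 CPM in G2 cells and 0.371, 0.434 and 0.175 in cells without cycle transcripts. The fitted log2 changes were 7.42 ± 0.23 for Fam83d, 7.29 ± 0.17 for Depdc1a and 6.72 ± 0.21 for Sapcd2, a regulator of spindle orientation, and rest on few UMIs in the cells without cycle transcripts, where all 3 genes were under 1 CPM in every run. Mxd3, a partner of MAX expressed in cycling progenitors, had 91.4, 80.7 and 88.7 CPM in G2 cells, against 0.866, 1.16 and 0.875 in cells without cycle transcripts (6.45 ± 0.21). Its relative Mxd4 went the other way: without astrocyte-marked cells it had 14.6, 12 and 12.7 in G2 cells, against 57.3, 65.7 and 55.8 in cells without cycle transcripts (-2.23 ± 0.11, adjusted p = 2.4e-12). Neil3, a DNA glycosylase of replicating cells, Shcbp1 and Ube2t, which serves crosslink repair, had log2 changes of 6.12 ± 0.15, 5.36 ± 0.14 and 4.51 ± 0.12. The histone genes split: Hist1h2ap had 49.8, 12.2 and 119 in G2 cells and 0.495, 0.434 and 2.28 in cells without cycle transcripts (5.82 ± 0.19), and Hist1h1e, a linker histone, changed by 2.66 ± 0.17. Hist1h2bc, an H2B gene whose message is also found polyadenylated outside S phase, had 64.6, 61.5 and 67.5 against 284, 344 and 356 (-2.37 ± 0.10, adjusted p = 5.3e-13). Of 13 listed histone genes tested, 10 were called higher and 2 lower, against 29.1% and 30.1% of all genes tested. All histone values in this text are counts of polyA RNA only.

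CDK inhibitor genes differed in both directions. Of 7 listed, 4 were called higher and 2 lower, against 29.1% higher and 30.1% lower over all genes tested. The share called lower was thus near that of all genes. Cdkn2c, which encodes p18 and blocks CDK4 and CDK6, had 209, 179.8 and 227 CPM in G2 cells, against 14.2, 15 and 18 in cells without cycle transcripts (3.68 ± 0.10). Cdkn2d, which encodes p19 of the same family, had 219, 207 and 232 against 26.4, 25.9 and 24.9 (3.06 ± 0.08). Cdkn1a had 63.2, 85.2 and 72.8 against 27, 25.7 and 18.2 (1.57 ± 0.20, adjusted p = 2.0e-06). Cdkn1c, which encodes p57 and promotes exit from the cycle, had 96.4, 68.8 and 61.3 in G2 cells, against 331, 290.4 and 211 in cells without cycle transcripts (-1.91 ± 0.08, adjusted p = 3.9e-13), and -2.12 ± 0.08 without astrocyte-marked cells. No run of one class reached the range of the other for any of these 4 genes. Cdkn1b, which encodes p27, fell by 0.31 ± 0.07 (adjusted p = 0.0011). Among G1 regulators, Ccne1 had 49.2, 52 and 47.5 in G2 cells and 6.19, 8.38 and 11 in cells without cycle transcripts (2.55 ± 0.15). Cdk4, the partner of D cyclins, had 365, 368 and 364 in G2 cells, against 180.1, 179 and 181 in cells without cycle transcripts (0.99 ± 0.05, adjusted p = 4.5e-12). Ccnd1 had 1211, 1100 and 1151 in G2 cells and 1018, 965 and 928 in cells without cycle transcripts, a change of 0.22 ± 0.05 (adjusted p = 0.0012) that was 0.03 ± 0.05 without astrocyte-marked cells (adjusted p = 0.61). Ccnd2 rose by 0.44 ± 0.10 and Ccnd3 fell by 0.57 ± 0.08 (adjusted p = 9.2e-04 and 4.1e-06).

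Several groups of genes of nuclear transport and RNA processing were higher in G2 cells. With all cells, 29.1% of all genes tested were higher and 30.1% lower. All 14 genes of nuclear transport and the RAN cycle, which also guides spindle assembly, were called higher, with a median log2 change of 1.61. Ran, the GTPase itself, changed by 1.19 ± 0.06, its partner Ranbp1 by 1.31 ± 0.05 and its activating protein Rangap1 by 2.04 ± 0.07. All 18 splicing and hnRNP genes were called higher, with a median of 0.84, among them Hnrnpa2b1 at 0.88 ± 0.05 and Srsf3 at 0.92 ± 0.06 (adjusted p = 6.9e-11 and 3.4e-10). Nucleotide synthesis genes were called higher in 18 of 21 cases with all cells and in 15 without astrocyte-marked cells, where 1 was lower, with Paics, of purine synthesis, at 0.90 ± 0.06 (adjusted p = 2.2e-10). Of 14 nucleolar genes, 10 were called higher (9 without astrocyte-marked cells), among them Npm1 at 0.73 ± 0.06 and Nop58 at 1.01 ± 0.07 (adjusted p = 3.6e-09 and 1.1e-09). Tubulins split 7 to 3: Tubb5 rose by 1.00 ± 0.06 and Tubb4b by 1.20 ± 0.07, and Tuba1a fell by 0.86 ± 0.06 (adjusted p = 8.2e-11, 8.9e-11 and 1.9e-09).

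Müller identity genes took a smaller share of the RNA in G2 cells. Over all genes tested, 30.1% were lower with all cells and 26.5% without astrocyte-marked cells. All 27 listed genes were called lower with all cells, with a median log2 change of -1.01, and 26 without astrocyte-marked cells, with a median of -0.93 and Ptn, a secreted growth factor, as the exception at 0.26 ± 0.08 (adjusted p = 0.008). Ptn and, below, Nes are named because of their values. In UMIs per cell the median was -0.37 with all cells, and 16 of the 27 had fewer UMIs per cell in all 3 runs. Apoe, a lipid carrier, had 1248, 1066 and 1058 CPM in G2 cells, against 2472, 2291 and 2371 in cells without cycle transcripts (-1.11 ± 0.08, adjusted p = 5.2e-10). Rlbp1 had 343, 306 and 305 against 658, 587 and 605 (-0.98 ± 0.07, adjusted p = 1.3e-09), and Glul 443, 421 and 356 against 666, 568 and 502 (-0.53 ± 0.09, adjusted p = 7.4e-05). Every run of the G2 cells was below every run of the cells without cycle transcripts for these 3 genes. Sox2, a transcription factor of progenitors and Müller glia, had -0.33 ± 0.06 with all cells (adjusted p = 2.0e-04) and -0.10 ± 0.06 without astrocyte-marked cells (adjusted p = 0.2). Vim had 4562, 4671 and 4322 in G2 cells and 4820, 5013 and 4606 in cells without cycle transcripts, a change of -0.12 ± 0.06 that did not pass (adjusted p = 0.11). Reactive gliosis genes were called lower in 18 of 23 cases and higher in 1, with a median of -1.14, and lower in 17 and higher in 1 (Nes, a progenitor filament) without astrocyte-marked cells, with a median of -0.81. The metallothioneins Mt1 and Mt2 were among them, at -1.20 ± 0.18 and -1.04 ± 0.21 (adjusted p = 1.2e-05 and 3.2e-04).

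Without astrocyte-marked cells the largest falls by the same rule were of Ogn, Mxd4, Hist1h2bc, S1pr3, Cdkn1c, Hmox1, Mt3, Mbd1, Meg3 and Slc7a2. Ogn, a small proteoglycan of the matrix, had 7.89, 4.84 and 5.06 CPM in G2 cells, against 56.6, 54 and 61.8 in cells without cycle transcripts (-3.33 ± 0.13, adjusted p = 4.9e-14). S1pr3, a sphingosine 1-phosphate receptor, had 38.6, 41.7 and 48.2 against 130.2, 202 and 236 (-2.15 ± 0.11, adjusted p = 6.5e-12). Hmox1, the stress-induced heme oxygenase, had 17, 25.2 and 14.8 against 67.9, 98 and 68.7 (-2.08 ± 0.19, adjusted p = 1.9e-08). The classes did not overlap in any of these, which the limits of the naming rule favour. The share of all tested genes without overlap is not given, here or for other genes said not to overlap.

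YAP targets were called in both directions. Of 24 listed targets, 6 were called higher and 12 lower with all cells, with a median log2 change of -0.16, and 6 higher and 9 lower without astrocyte-marked cells, with a median of -0.09. Over all genes tested 29.1% were higher and 30.1% lower with all cells, and 28.6% and 26.5% without astrocyte-marked cells, so that the share of targets called higher was near the background in both fits. The share called lower, 12 of 24 and 9 of 24, was above the background in both fits, a difference that was not tested. Tgfb2, a TGF-beta ligand, fell by 0.49 ± 0.05 and F3, tissue factor, by 0.92 ± 0.10 (adjusted p = 5.3e-08 and 2.4e-07). Yap1 had 19, 20.2 and 21.1 CPM in G2 cells and 22.1, 31.1 and 25.7 in cells without cycle transcripts (-0.42 ± 0.08, adjusted p = 3.5e-04), and whether transgene reads were counted under it is not given in the sources used here. Its partner Tead1 changed by 0.11 ± 0.07 and its relative Wwtr1, which encodes TAZ, by -0.16 ± 0.09 (adjusted p = 0.19 and 0.11). Of 19 Hippo components, 6 were called higher, a share near the 29.1% of all genes, and 3 lower, a share under the 30.1% of all genes, with Fat1, an atypical cadherin, at 0.64 ± 0.07 and Vgll4, which competes with YAP for TEAD, at -0.72 ± 0.06 (adjusted p = 4.2e-07 and 1.8e-08). Of 13 genes of the insulin-like growth factor axis other than Igfbp2, 2 were higher and 8 lower with all cells, against 2 higher and 3 lower without astrocyte-marked cells, where both shares were below those over all genes (28.6% and 26.5%). The receptor Igf1r rose by 0.29 ± 0.06 and the adaptor Irs1 fell by 0.62 ± 0.10 (adjusted p = 3.1e-04 and 3.0e-05), while Igfbp3 had -1.17 ± 0.22 with all cells and -0.06 ± 0.26 without astrocyte-marked cells (adjusted p = 1.8e-04 and 0.87). With all cells, immediate early and interferon genes were called lower or did not pass: 12 of 20 immediate early genes were lower and none higher, with Junb at -1.01 ± 0.11 and Fos at -0.57 ± 0.13 (adjusted p = 2.5e-07 and 7.5e-04). Of 18 interferon genes, 11 were lower with all cells, against 8 lower and 1 higher without astrocyte-marked cells, and Ifitm3 had -1.31 ± 0.11 and -0.50 ± 0.09 in these fits (adjusted p = 6.1e-09 and 1.9e-04). Of 18 glycolysis genes, 10 were lower and 1 higher, with the glucose transporter Slc2a1 at -1.42 ± 0.10 and Aldoa at -0.84 ± 0.05 (adjusted p = 1.2e-09 and 7.4e-11), and 12 of 13 mitochondrially encoded genes were lower. Of 19 retinal progenitor genes, 3 were higher and 13 lower, with Pax6 at -0.40 ± 0.06 and Six3 at -0.27 ± 0.06 (adjusted p = 2.1e-05 and 4.2e-04), and the reprogramming factor Lin28a had too few UMIs to be tested. Nrarp, a Notch feedback gene, rose by 1.44 ± 0.16 (adjusted p = 5.6e-07), and 5 of the 9 Notch pathway genes were lower. With all cells, 35.9% of all lower genes also had fewer UMIs per cell in 3 of 3 runs. So did 4 of the 12 lower YAP targets, 1 of 3 Hippo components and 4 of 8 growth factor axis genes. The same held for 3 of 12 immediate early, 4 of 11 interferon and 4 of 10 glycolysis genes. It held for 0 of 12 mitochondrially encoded, 5 of 13 retinal progenitor and 1 of 5 Notch pathway genes. In cells of 15000 to 25000 UMIs only, a window chosen after seeing the data, the changes of Yap1 (-0.32), Fos (-0.19) and Six3 (-0.20) did not pass, nor did those of Ccnd2 (0.21), Cdkn1b (-0.13), Ccnd1 (0.08) and Sox2 (-0.16), while those of Vim (-0.28) and Tead1 (0.24) did. With no run block the calls of Cdkn1b, Fos, Junb, Mt1 and Mt2 were lost.

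**Figure D4:**
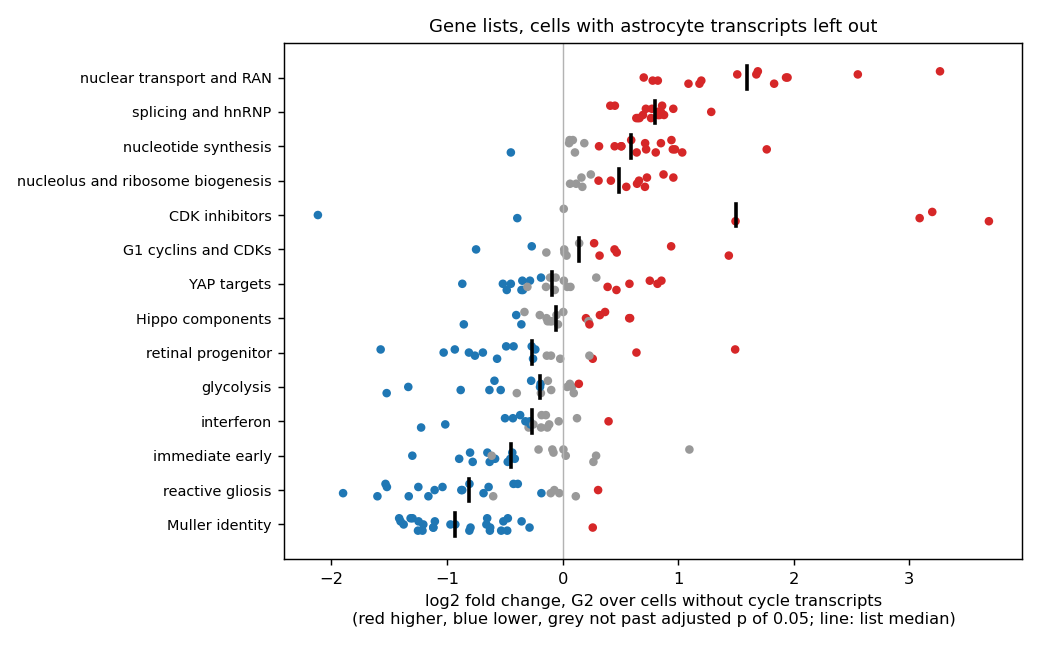
Log2 change of each gene of 14 lists, G2 over without cycle transcripts, fitted without astrocyte-marked cells. Each point is a gene and each black line the median of its list. Splicing and RAN transport genes lay above 0, Müller identity genes below 0 with 1 exception called higher, and YAP targets on both sides.

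Against S phase cells, G2 cells had higher levels of spindle and kinetochore transcripts and lower levels of replication transcripts. Of 12600 genes tested, 1187 were higher in G2 (9.42%) and 1295 lower (10.3%). Of the cycle lists, all 26 spindle motor genes, 17 of 22 kinetochore genes and 16 of 18 kinase and cyclin genes were called higher, and 32 of 45 S phase and replication genes lower with 3 higher, all as a description since cycle transcripts set both classes. Plk1 had 142, 135 and 139 CPM in G2 cells and 9.46, 10.8 and 11.7 in S phase cells (3.69 ± 0.12), and Aurka 144, 126 and 145 in G2 cells and 10.4, 13.2 and 10.9 in S phase cells (3.50 ± 0.17). Ung, the uracil DNA glycosylase that cleans replicating DNA, had 9.76, 7.68 and 6.04 in G2 cells, against 151, 109 and 123 in S phase cells (-4.05 ± 0.13). Its G2 runs were far below every S phase run. The replication helper Hells, a chromatin remodeller, had -1.28 ± 0.11, and outside the cycle lists Hmox1 had -1.80 ± 0.23 (adjusted p = 1.8e-05). The inhibitors Cdkn2d and Cdkn2c were higher in G2 than in S phase too, with 219, 207 and 232 against 44, 57.9 and 50.1 (2.05 ± 0.09) and 209, 179.8 and 227 against 50.1, 66.1 and 71 (1.66 ± 0.09). Kpna2 had 2.24 ± 0.16. Of the listed genes of growth, 12 of 21 nucleotide synthesis genes and 8 of 14 nucleolar genes were lower in G2 and none higher, with Impdh2, of guanine nucleotide synthesis, at -0.48 ± 0.06 and the nucleolar methyltransferase Fbl at -0.45 ± 0.08 (adjusted p = 3.1e-05 and 5.1e-04). Both calls were lost on thinning to 3500 UMIs (-0.29 and -0.34, adjusted p = 0.099 and 0.097). Of 27 Müller identity genes 12 were lower and 1 higher, and Ccnd1 did not pass (0.04 ± 0.05, adjusted p = 0.69). Without the run block 781 genes were higher and 627 lower, and without run 2, which held the most S phase cells, 571 and 531, while without run 1 the lower count was 831. The near-even balance changed with these settings, with 2304 higher and 573 lower without the low-count filter and 252 and 147 when thinned. The thinned fit chose the classes again on the thinned counts, with 87 S phase cells in run 3 in place of 65. The part of depth in the change was not tested.

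Against mitotic cells, G2 cells had higher levels of S phase and immediate early transcripts. Of 12607 genes tested, 1893 were higher in G2 (15%) and 1981 lower (15.7%), though only 292 and 111 differed by at least 1 on the log2 scale. Of the cycle lists, 34 of 52 S phase and replication genes were called higher and 2 lower, and 16 of 26 spindle motor genes lower and none higher, again as a description. Ccne1 had 49.2, 52 and 47.5 CPM in G2 cells, against 7.19, 5.23 and 3.29 in mitotic cells (3.34 ± 0.18). Fbxo5, which encodes the APC/C inhibitor Emi1, had 90.3, 82.8 and 81.3 against 12.7, 11.8 and 13.2 (2.81 ± 0.15), and Esco2, which sets cohesion, had 1.65 ± 0.07. Among genes lower in G2 than in mitosis, Kif2c, a microtubule depolymerase, had 40.6, 41.7 and 36.2 in G2 cells and 94, 109 and 98 in mitotic cells (-1.30 ± 0.08), and Cdc25c, the phosphatase that activates Cdk1, 38.7, 42.6 and 44.5 in G2 cells and 101, 110.2 and 90.8 in mitotic cells (-1.22 ± 0.10). The classes did not overlap in any of these 4 genes with printed values. Hist1h2ap had 49.8, 12.2 and 119 in G2 cells and 2.46, 0.299 and 3.61 in mitotic cells (4.90 ± 0.18), and 9 of 13 histone genes were called higher. Kpna2 had 105, 48.4 and 185 in G2 cells and 20.3, 6.12 and 32.1 in mitotic cells (2.58 ± 0.12), and in both genes every G2 run was above every mitotic run. The inhibitors Cdkn2c and Cdkn2d were higher in G2, by 1.11 ± 0.08 and 1.08 ± 0.07. Cdkn1a was higher by 0.94 ± 0.19 (adjusted p = 0.0011). The call of Cdkn1a was lost without run 2 (0.64, adjusted p = 0.063), with a g limit of 20 (0.52, adjusted p = 0.081) and in cells of 15000 to 25000 UMIs (0.64, adjusted p = 0.067). Tubulin genes were higher in 7 of 9 called cases, with Tuba1b at 1.24 ± 0.07 and Tubb5 at 1.01 ± 0.06 (adjusted p = 1.3e-09 and 1.7e-09).

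Immediate early, interferon and chemokine genes were called higher in G2 than in mitosis in most cases. Over all genes tested against mitosis, 15% were higher and 15.7% lower. Of 20 immediate early genes 17 were called higher, with a median log2 change of 1.04, of 18 interferon genes 16, with a median of 0.60, and of 8 chemokine and cytokine genes 5, with a median of 1.61. Jun, a subunit of AP-1, had 453, 566 and 944 CPM in G2 cells, against 236, 211 and 319.8 in mitotic cells (1.35 ± 0.10, adjusted p = 1.6e-08), and Dusp1, a phosphatase that ends MAP kinase signals, had 1.65 ± 0.12 (adjusted p = 2.2e-08). Ccl2, a chemokine that draws monocytes, had 110.3, 809 and 204 against 29.4, 119 and 48.1 (2.52 ± 0.53, adjusted p = 0.0016), which varied widely between runs and lost its call with no run block (2.56, adjusted p = 0.24). The YAP target Cyr61 had 1230, 1398 and 1834 against 738, 585 and 775 (1.12 ± 0.10, adjusted p = 1.7e-07), and 11 of 24 YAP targets were called higher and 2 lower. The chaperone gene Hspa1a had 201, 309 and 267 against 42.9, 56.1 and 54 (2.39 ± 0.19, adjusted p = 4.7e-08). In Jun, Cyr61 and Hspa1a every G2 run was above every mitotic run. Mitotic cells held fewer UMIs each and more cone transcripts: all 6 cone markers were called lower in G2, with a sum of 17.6 CPM in G2 cells and 49.7 in mitotic cells. The 10 rod markers summed to 1373, 606 and 614 in mitotic cells and 576, 540.2 and 714 in G2 cells. The part of the cone and rod transcripts in the difference was not tested. In cells of 15000 to 25000 UMIs, a window chosen after seeing the data, 1066 genes were higher in G2 and 1056 lower. Without the run block 825 genes were higher and 835 lower, and without run 2, 1007 and 1028. The 3 comparisons share the G2 cells, and their changes are not independent of each other.

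**Figure D5:**
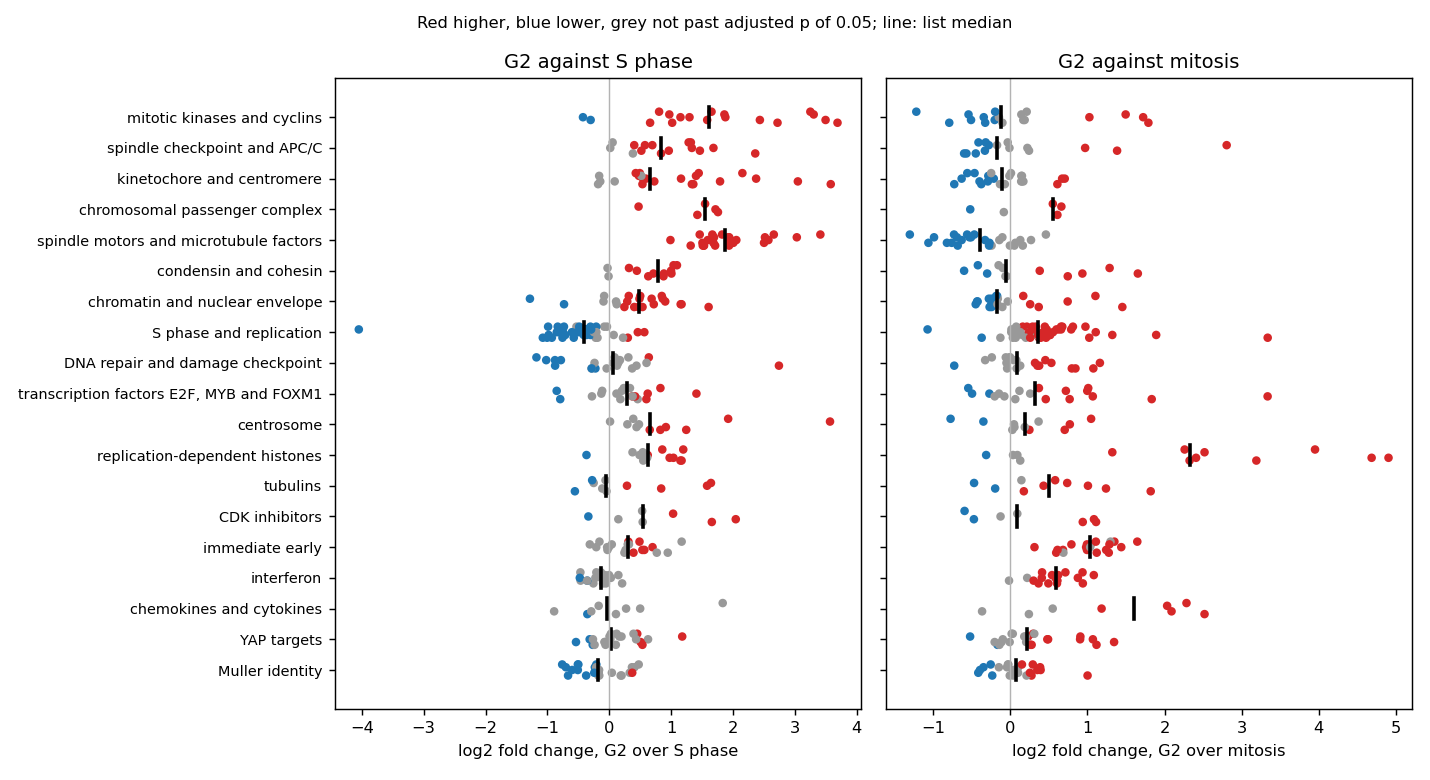
Log2 change of each gene of the lists in G2 over S phase and in G2 over mitosis. Each point is a gene and each black line the median of its list. Spindle motor genes lay above 0 against S phase and mostly below 0 against mitosis, and immediate early genes were above 0 against mitosis with a median of 1.04.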

How the data were processed

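Per the submitters' processing notes, the authors used Cell Ranger (version not given in the sources used here), mm10 and Seurat 2.3.4. They deposited a table of UMI counts (18478 genes, 24695 cells), on which every result rests. They also deposited natural log values for 13511 of the cells, equal to the natural log of 1 plus 10000 times the count over the cell's total, to within 5.00e-07, and used here as an alternative choice of cells.

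Counts were summed per class and run and tested with edgeR 4.0.16 (glmQLFit, glmQLFTest; TMM; filterByExpr; limma 3.58.1, R 4.3.3), with Benjamini-Hochberg adjustment over all genes tested. All classes with at least 20 cells in each run were fitted together and shared the estimate of the spread. Among them were the 12051 cells with Igfbp2, g and m all under 1. Rule genes were kept in the library totals and left out of the tests. The SE is the absolute log2 change over the square root of F. The classes of a run come from the same library, so the run was a block: deviations from class means correlated at 0.70 to 0.87 per run over 2959 genes. The method was tested on simulated data.

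The members, gene lists and class limits were chosen with earlier results of these data known. Named genes were, among called genes with a log2 change of at least 1, at least 50 CPM in the higher class and 1 direction in 3 runs, the 10 largest rises in and outside the cycle lists and the 10 largest falls (8 each in the other comparisons), plus, from each list, at most 4 called genes of the highest level, and a fixed set. Ribosomal, mitochondrial and unnamed genes were left out of the largest changes. Doublets were not called and were kept, and no filter on cells beyond the rule was used. Of the members, 55 had a barcode also found in another run and 6 missed limits of 500 genes and 20% mitochondrial UMIs. Alternatives were DESeq2 1.42.0, other scalings, filters, class limits, cell sets and depths, and leaving out each run. Other tools were Python 3.11.15, numpy 2.4.6, pandas 2.3.3, scipy 1.17.1 and matplotlib 3.10.9. Intervals cover counting error only.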

Additional observations from a re-analysis of the deposited data

How the results depend on the processing

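The limits are that 3 runs of 1 group give no control retina, that G2 is read from transcripts and not from DNA content, and that the classes differ in depth. Counts below give genes higher in G2 first and lower second. The thinned fits chose the classes again on the thinned counts. Against cells without cycle transcripts only thinning to 3500 UMIs moved the counts by over 1.5 times, to 2127 and 2315, and leaving out each run gave 2975 to 3505 and 3061 to 3267. Against mitosis the counts were 825 and 835 with no replicate block, 534 and 535 thinned, 1066 and 1056 in cells of 15000 to 25000 UMIs (a window added after seeing the data), and 1007 to 1504 and 1028 to 1525 with a run left out. The lower count was 1192 without the low-count filter and 1292 in the authors' cells. Against S phase they were 2304 and 573 without the filter, 781 and 627 with no replicate block, 252 and 147 thinned, 630 and 498 with a g limit of 5, 647 and 638 in the UMI window, and 571 to 873 and 531 to 875 with a run left out. Some of these settings leave fewer UMIs or cells, and the cause of the changed counts was not tested.

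The number of G2 cells was 1700 with a g limit of 20 and 1658 to 1990 with a run left out. Their share of Igfbp2-high cells was 51.5% with a g limit of 5, 26.0% with 20, and 39.7% to 45% with a run left out. The UMI ratio to cells without cycle transcripts was 1.62 with a g limit of 20, 1.46 in the authors' cells, 1.5 without astrocyte-marked cells, a choice added after seeing the data, and 1.53 to 1.57 with a run left out. Of 1889 alternative values of the 95 gene changes named with a value, 1852 kept direction and call, 27 lost the call, 7 gained it and 3, all without a call, turned sign. Ccnd1 against S phase was -0.013 thinned and -0.036 with a g limit of 5, and Tead1 against cells without cycle transcripts -0.020 in the authors' cells. With no replicate block, 6 calls were lost, those of Ccl2 against mitosis (2.56) and of Cdkn1b (-0.29), Fos (-0.54), Junb (-0.99), Mt1 (-1.20) and Mt2 (-0.97) against cells without cycle transcripts. Thinning ended the calls of Impdh2 (-0.29) and Fbl (-0.34) against S phase, the authors' cells that of Lcn2 (-1.30), and a fit of only the classes compared gave Vim (-0.12) and Wwtr1 (-0.16) a call. Library totals, RLE factors and DESeq2 changed no call of a named gene. The comparisons with G2 cells lacking Igfbp2, and their alternatives, were not run, because 2 runs held fewer than 20 such cells.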
